A study of Mus musculus with 6 samples.

Results

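The probe sets described here measure the variable (V) segments of the immunoglobulin kappa light chain locus on mouse chromosome 6. They are the 86 probe sets that the platform annotation names for 1 gene whose symbol begins with Igkv, out of 65956 on the array and 30604 with 1 gene. Each belongs to a different gene, so 86 of the 162 Igkv genes in the RefSeq gene table had a probe set of their own. The rule for members used symbols alone and no measured value, though it was set with earlier results of these data known.

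RNA came from Lineage- c-Kit+ Sca1+ (LSK) cells, a flow-sorted bone marrow fraction enriched for blood stem cells and early multipotent progenitors. There were 3 arrays from miR-21flox/flox:Mx1-Cre+ mice, called knockout here, and 3 from miR-21flox/flox:Mx1-Cre- littermates, called control. Both groups carried the floxed alleles and were injected 7 times with 250 µg of pIpC, starting at 4 to 6 weeks of age, and cells were taken 4 weeks later. The Mx1 promoter answers to the interferon that pIpC induces and is active in many cell types, and the knockout mice alone carried Cre, so miR-21 loss and Cre cannot be told apart. The labels call the arrays of a group biological replicates but do not say whether each was 1 mouse or a pool, and p-values measure the spread between these arrays. Of 9 LSK genes with a probe set, the mean level lay above the median of all probe sets in each case. In the knockout 6 fell and 1 rose, against a background of 7.1% lower and 11.0% higher over all probe sets with 1 gene. Their summed linear level was 1225 to 1236 in the knockout and 1530 to 1560 in control. Kit, the receptor used for the sort, stood at 8.12, 8.19 and 8.14 on knockout arrays and at 8.55, 8.68 and 8.59 on control arrays, and the Sca-1 gene Ly6a had no probe set of its own among those with 1 gene.

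An immunoglobulin kappa gene is put together in developing B cells, when the recombinase joins 1 of many V segments to a J segment next to the constant region. Unrearranged V segments can also be transcribed at a low level, as germline transcripts, around the time the locus opens. Strong kappa V transcription is a property of B-lineage cells and above all of plasma cells, and a B cell or plasma cell carries mainly 1 productive V segment, so the pattern of V segments in a sample reflects which clones or which germline transcripts it holds. The V segments are sorted into families by sequence similarity. In a symbol such as Igkv3-10 the first number is the family and the next the place in the locus, counted from the J segments.

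Kappa V segments differed between knockout and control LSK samples more often than probe sets in general, and in both directions. Of 86 members, 25 rose and 14 fell in the knockout, and 47 did not pass (limma, adjusted p under 0.05 over all 30604 probe sets with 1 gene). That is 45.3% called, against a background of 18.1% over all probe sets fitted. By direction it is 29.1% higher, against 11.0%, and 16.3% lower, against 7.1%. The median size of the change, sign left aside, was 0.24 on the log2 scale among members and 0.10 over all probe sets fitted. Because rises and falls offset each other, the median signed change was only 0.06 among members, beside 0.04 over all. Of the 39 members that passed, 14 changed by under 1.5-fold, 11 by 1.5- to 2-fold, 9 by 2- to 4-fold and 5 by 4-fold or more. At 2-fold or more the calls were 16.3% of members, against a background of 0.719%. Of these, 9 rose (background 0.294%) and 5 fell (background 0.425%). At an unadjusted p under 0.05 in limma the count was 47 members (54.7%), against a background of 31.2%. Probe sets differ in how well they bind their target, so levels are compared between arrays for 1 probe set and not between probe sets. Members of a family resemble each other in sequence, and how far their probe sets pick up each other's transcripts was not tested.

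Of the 14 falls, 5 were of at least 2-fold. Igkv19-93, the only member of its family on the array, had log2 values of 3.96, 3.72 and 3.92 on knockout arrays, against 8.39, 8.05 and 8.18 on control arrays. The groups lay 4.09 apart at their nearest values, many times the range of 0.25 within the knockout and 0.34 within control. The change was -4.34 ± 0.10 (SE), a 20.3-fold lower level (adjusted p = 2.17e-07), and it was the lowest change of all 30604 probe sets fitted. Igkv1-88 was next in that order over the whole array. It read 1.92, 1.48 and 1.67 in the knockout, against 5.71, 6.08 and 5.46 in control, a change of -4.06 ± 0.16 (SE, adjusted p = 2.94e-06). Its knockout mean lay under 1.92, the median of all 65956 probe sets, which is used here as a dim level, so the 16.7-fold size rests on a floor. Igkv5-48 showed the same form, with 0.71, 0.80 and 0.78 on knockout arrays and 3.05, 2.89 and 2.94 on control arrays (change -2.20 ± 0.06, SE, adjusted p = 6.60e-07), and it too was dim in the knockout.

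Igkv3-2 and Igkv15-103 made up the other falls of at least 2-fold, and neither came near the dim level. Igkv3-2 lies close to the J segments and read 3.71, 3.53 and 3.76 in the knockout, against 5.65, 5.15 and 4.92 in control (change -1.57 ± 0.16, SE, adjusted p = 3.54e-04). Igkv15-103 read 7.50, 7.24 and 7.40 on knockout arrays, against 8.70, 8.53 and 8.66 on control arrays. Its change was -1.25 ± 0.08 (SE, adjusted p = 2.75e-05). The knockout groups of both were narrow, with every array under every control array.

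Of the 25 rises, 9 were of at least 2-fold. Igkv6-25 read 4.03, 3.30 and 4.17 on knockout arrays, against 0.98, 0.93 and 1.13 on control arrays, where it was dim. Its change of 2.82 ± 0.19 (SE, adjusted p = 4.04e-05) was the fourth highest of all probe sets fitted, and since control lay under the dim level its 7.07-fold size and its rank rest on a floor. Igkv3-10 was the fifth highest, with 6.38, 6.57 and 6.44 in the knockout, against 3.77, 3.74 and 3.91 in control. The change was 2.66 ± 0.07 (SE, 6.30-fold, adjusted p = 6.54e-07), and unlike Igkv6-25 it was above the dim level on every array. Igkv14-100 read 3.75, 3.77 and 3.14 in the knockout, against 1.82, 1.84 and 1.91 in control (change 1.70 ± 0.15, SE, adjusted p = 1.52e-04). Its control mean was dim, so the size of this change rests on a floor too.

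Further members rose by at least 2-fold. Igkv8-21 read 4.98, 4.09 and 4.87 on knockout arrays, against 2.67, 3.004 and 3.26 on control arrays (change 1.67 ± 0.23, SE, adjusted p = 0.00169). Igkv4-57-1 read 4.45, 4.04 and 4.82, against 2.75, 2.54 and 3.04 in control (change 1.66 ± 0.19, SE, adjusted p = 5.99e-04). In both, knockout replicate 2 was the lowest of its group and still stood above every control array. Igkv12-98 read 3.50, 3.44 and 3.62 in the knockout, against 1.901, 1.75 and 2.26 in control (change 1.55 ± 0.12, SE, adjusted p = 7.04e-05). Igkv17-121 stood at 2.82, 2.08 and 2.36 in the knockout, against 1.46, 1.0002 and 1.35 in control (change 1.15 ± 0.18, SE, adjusted p = 0.00335). The control level of Igkv17-121 was dim, while that of Igkv12-98 sat at the dim level, so the sizes of these changes are uncertain.

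Igkv6-32 and Igkv4-79 lay just past 2-fold. Igkv6-32 had 2.15, 1.27 and 2.31 on knockout arrays, against 0.72, 0.95 and 0.97 on control arrays (change 1.03 ± 0.23, SE, adjusted p = 0.0167). Knockout replicate 2 lay nearer to control than to the other knockout arrays, and the means of both groups were dim. The call was lost without knockout replicate 1 (0.91, adjusted p = 0.0536) and without control replicate 1 (0.95, adjusted p = 0.0540). Igkv4-79 was steadier, with 3.39, 3.09 and 3.14 in the knockout, against 2.07, 2.11 and 2.36 in control (change 1.02 ± 0.10, SE, adjusted p = 2.74e-04). In all 14 members with a change of at least 2-fold the groups did not overlap, with a gap of 0.30 to 4.09 between the nearest values. Over all members the groups did not overlap for 47 (54.7%), against a background of 36.3%. The knockout was higher in 27 of these (background 23.3%) and lower in 20 (background 12.9%).

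**Figure D1:**
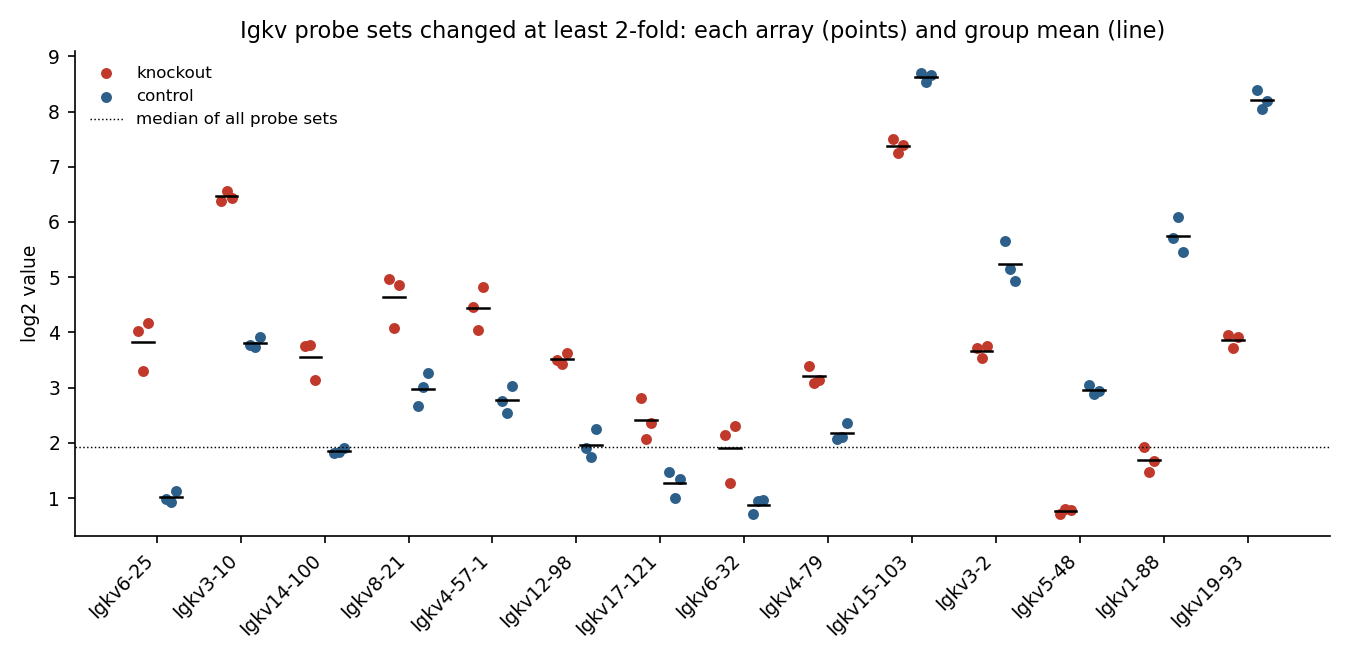
Log2 values (vertical axis) of the 14 Igkv probe sets changed at least 2-fold, with 3 knockout arrays (red, left) and 3 control arrays (blue, right) as points and the group mean as a line. Probe sets run from the highest change (Igkv6-25) to the lowest (Igkv19-93), and the dotted line is the median of all probe sets, 1.92.

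The other 25 members that passed changed by less than 2-fold, 16 of them higher and 9 lower. Igkv2-137, the member farthest from the J segments, read 4.79, 4.80 and 4.90 in the knockout, against 3.47, 4.16 and 4.23 in control (change 0.87, adjusted p = 0.0101). Here the knockout arrays lay close together and control replicate 1 was the lowest of its group. Igkv5-39 read 3.003, 2.42 and 3.11 on knockout arrays, against 3.98, 3.39 and 3.99 on control arrays. Its change of -0.94 (adjusted p = 0.0139) lost the call without control replicate 3, at -0.84 (adjusted p = 0.0568). Igkv5-43 (-0.93, adjusted p = 0.00341) and Igkv1-135 (-0.92, adjusted p = 0.00122) fell by about as much. Igkv12-46 (0.50, adjusted p = 0.0433) and Igkv8-34 (0.27, adjusted p = 0.0201) passed narrowly. Igkv12-46 lost the call without any of 5 arrays in turn (0.36 to 0.56), the exception being knockout replicate 3, and Igkv8-34 without control replicate 1 (0.22) or knockout replicate 2 (0.24). Igkv9-129 (0.42, adjusted p = 0.0468), the one called member whose groups overlapped, lost it without any of 4 arrays, control replicates 1 (0.39) and 2 (0.33) and knockout replicates 1 (0.38) and 2 (0.34).

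Some bright members did not pass. Igkv4-54 read 5.05, 4.52 and 5.17 on knockout arrays, against 5.26, 4.92 and 4.79 on control arrays, a difference of -0.08 (adjusted p = 0.813). Igkv4-71 (4.47 ± 0.16 in the knockout and 4.64 ± 0.21 in control, SD, n = 3 each, adjusted p = 0.376 in limma) and Igkv4-59 (4.22 ± 0.24 in the knockout and 4.47 ± 0.21 in control, SD, n = 3 each, adjusted p = 0.259 in limma) had overlapping groups as well. Among the 47 members that did not pass, no change exceeded 0.44 in size, the extreme being Igkv12-89 at -0.44 (adjusted p = 0.109). Of all 86 members, 40 had a mean over the 6 arrays under the dim level. These include 14 of the 39 calls, 9 higher and 5 lower, for which a fold is uncertain. Of the 11625 dim probe sets with 1 gene, 226 were called higher and 106 lower.

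Arrays of 1 group gave nearly the same pattern of segments. Over the 86 members, Pearson's r was 0.980 to 0.992 between knockout arrays, 0.984 to 0.989 between control arrays and 0.758 to 0.787 between a knockout and a control array. Over all 30604 probe sets with 1 gene the values were 0.998 within the knockout, 0.997 to 0.998 within control and 0.991 to 0.994 between groups. These describe probe sets that share the same arrays. The median over members hardly moved, at 2.04, 2.07 and 2.07 on knockout arrays and 1.92, 1.94 and 2.02 on control arrays. Knockout replicate 2 was the lowest knockout array for 37 members and control replicate 2 the lowest control array for 42.

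By V family the members moved together in some families and apart in others. Of 20 families, 10 had at least 2 members that passed, and in 7 of these all calls ran in 1 direction. Families 2, 12 and 17 are among the 7 and had only 2 calls each. Over all probe sets fitted the background was 11.0% higher and 7.1% lower. In family 5, 4 of 5 members fell (Igkv5-48, Igkv5-39, Igkv5-43 and Igkv5-45) and the remaining one, Igkv5-37, was at -0.10 (adjusted p = 0.694), with a family median of -0.93. In family 1, 3 of 7 fell, Igkv1-88, Igkv1-135 and Igkv1-133 (-0.35), with a median of -0.13. In family 6, 4 of 6 rose, with a median of 0.70. Beside Igkv6-25 and Igkv6-32 these were Igkv6-14 (0.82, adjusted p = 0.00216) and Igkv6-13 (0.58, adjusted p = 0.00306).

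All 3 members of family 14 rose (Igkv14-100, Igkv14-111 at 0.74 and Igkv14-130 at 0.34), as did 2 of 3 in family 17, Igkv17-121 and Igkv17-127 (0.64, adjusted p = 1.86e-04). In family 2, 2 of 5 rose, Igkv2-137 and Igkv2-109 (0.40), and in family 12 the risers were 2 of 5, Igkv12-98 and Igkv12-46. The families with calls in both directions were 3, 4 and 8. In family 3, Igkv3-10 and Igkv3-3 (0.37) rose while Igkv3-2 fell. In family 8, Igkv8-21 and Igkv8-34 rose while Igkv8-16 (-0.71, adjusted p = 3.28e-04) and Igkv8-19 (-0.45) fell. In family 4, which held 25 of the members, 7 rose and 2 fell, Igkv4-55 (-0.91, adjusted p = 0.00272) and Igkv4-57 (-0.35). The family median there was 0.13, and 2 falls among 25 members are near the background of 7.1% lower. Leaving out 1 array in turn took the call from Igkv1-133, Igkv14-130, Igkv3-3, Igkv4-57 and Igkv8-19 at adjusted p of 0.0501 to 0.0841 in limma. Control replicate 1 mattered for Igkv1-133 (-0.36), Igkv14-130 (0.29) and Igkv4-57 (-0.34), control replicate 2 for Igkv14-130 (0.31), and control replicate 3 for Igkv3-3 (0.38), Igkv4-57 (-0.32) and Igkv8-19 (-0.39). Knockout replicate 1 mattered for Igkv1-133 (-0.33), Igkv14-130 (0.30) and Igkv3-3 (0.33), knockout replicate 2 for Igkv4-57 (-0.26), and knockout replicate 3 for Igkv1-133 (-0.36), Igkv14-130 (0.32) and Igkv8-19 (-0.41). Of the other risers in family 4, Igkv4-60 (0.24 to 0.30), Igkv4-61 (0.82 to 0.89) and Igkv4-80 (0.25 to 0.36) also lost the call in 2 to 4 of the 6 fits without 1 array. Differences between families were not tested.

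**Figure D2:**
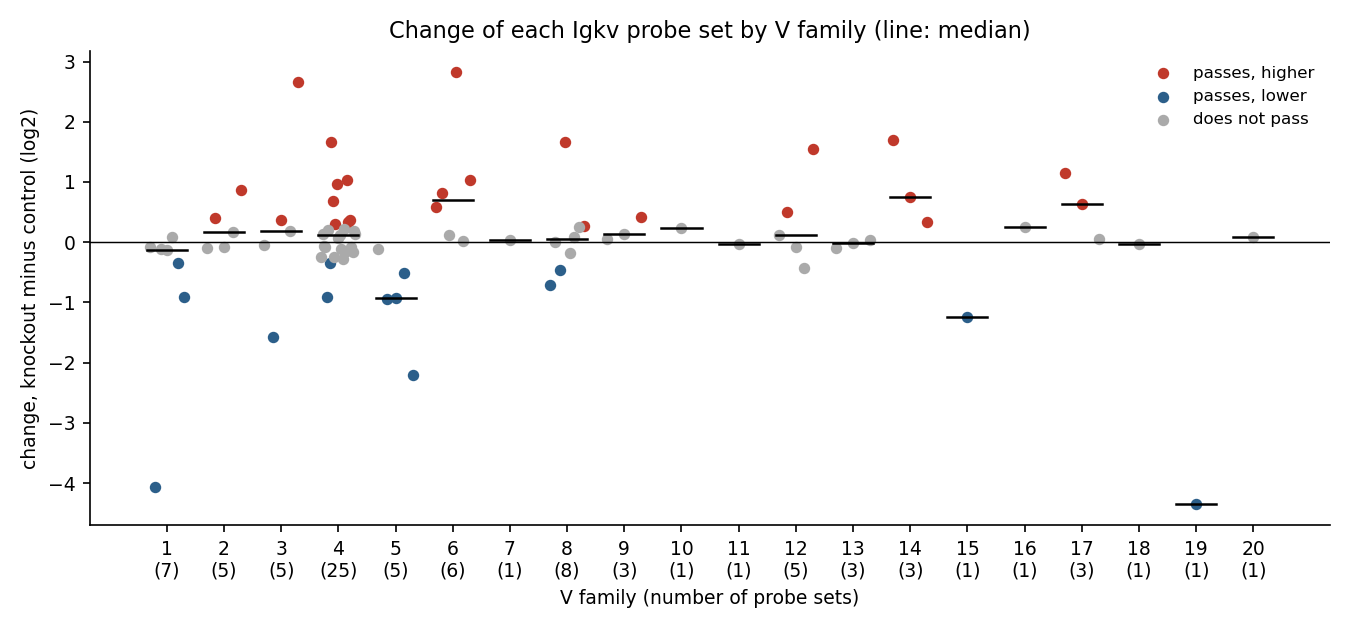
Change of each Igkv probe set (knockout minus control, log2, vertical axis) by V family, with the number of probe sets in brackets and the family median as a line. Red points passed and were higher, blue points passed and were lower, grey points did not pass; families 5 and 1 have calls only below 0, and families 6, 14 and 17 only above 0.

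Rises and falls were found along the whole locus. Members were ranked by the place number in the symbol and cut into 4 parts. The RefSeq table's order put all 86 members in the same parts. In the part nearest the J segments (place numbers 1 to 36), 8 of 22 rose and 3 fell, and in the next (37 to 63) 5 of 22 rose and 6 fell. Farther out, 5 of 21 rose and 2 fell between 68 and 100, and 7 of 21 rose and 3 fell between 101 and 137. The background over all probe sets fitted was 11.0% higher and 7.1% lower, and the 2 falls between 68 and 100 are near it. Differences between the parts were not tested. Across the 86 members the change had a Pearson r of -0.07 and a Spearman rho of 0.02 with the order from the J segments. Members that follow each other in this order both passed in 17 instances. The direction was the same in 12 of them (7 of 9 within a family and 5 of 8 between families) and opposite in 5. With 25 members called higher and 14 lower, many pairs would agree in direction anyway, and these counts were not tested. Igkv3-2 fell beside a rising Igkv3-3, and Igkv4-57 fell beside a rising Igkv4-57-1. The largest falls, Igkv1-88 and Igkv19-93, were not far apart in the locus, and the 4 members between them did not pass. These 4 were Igkv12-89, Igkv4-90, Igkv4-91 and Igkv4-92, with changes of -0.44 to 0.18. All but Igkv12-89 were dim, so their lack of a call says little. Igkv12-89 itself (-0.44) had every knockout array under every control array.

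**Figure D3:**
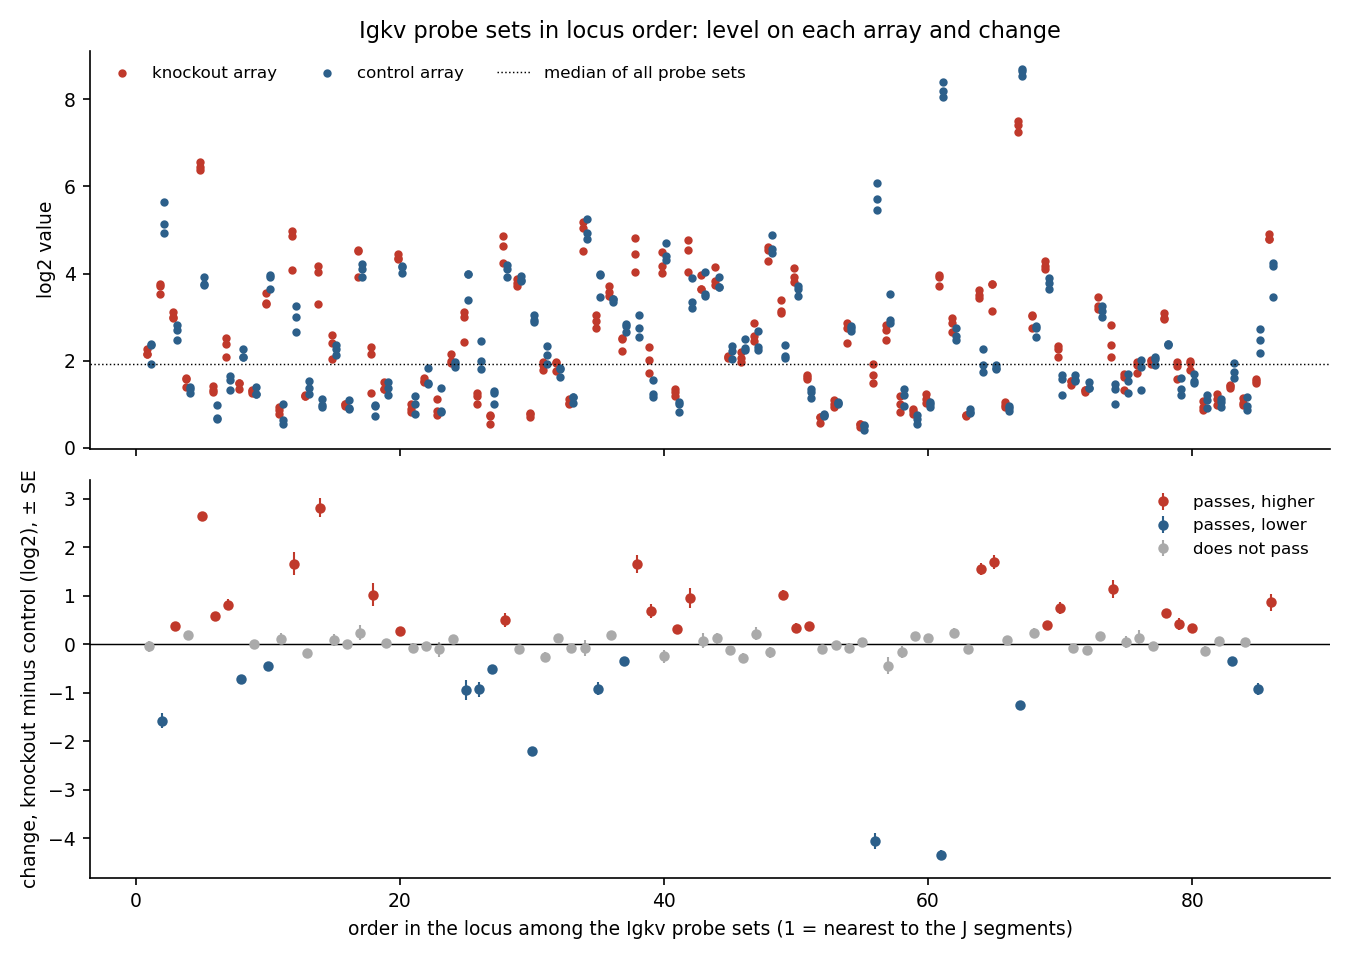
The 86 Igkv probe sets in locus order (horizontal axis, 1 nearest to the J segments). The upper panel shows log2 values on each knockout (red) and control (blue) array with the median of all probe sets dotted, and the lower panel the change (knockout minus control, log2) ± SE, in which rises and falls both occur in each stretch of the locus.

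The RefSeq table also gives a class to each segment. It lists 79 members as V segments and 7 as V segment pseudogenes, which lack a usable reading frame or signal. All 39 calls fell among the 79, while the pseudogenes had 0 calls in limma (background 18.1%), with changes of -0.11 to 0.20. Of the 7 pseudogenes, 1 had an unadjusted p under 0.05 (background 31.2%). The difference between the classes was not tested. Only 3 of the 7 pseudogenes had a mean over all arrays above the dim level, beside 43 of the 79 V segments. For the dim pseudogenes the lack of a call says little. Among the 3, Igkv12-47 stood at 3.78 ± 0.08 in the knockout and 3.87 ± 0.06 in control (SD, n = 3 each). Igkv4-56 stood at 3.59 in the knockout and 3.39 in control, and both were well above the dim level. Genes that are no V segments but lie among or beside them were looked at after the data had been seen. Of 10 with a probe set, 7 among the segments and 3 flanking the locus, 0 passed in limma (background 18.1%). An unadjusted p under 0.05 was found for 2 (background 31.2%). The flanking genes were Rpia (0.10, adjusted p = 0.374) and Eif2ak3 (0.19, adjusted p = 0.0759), both beyond the constant region. Il23r (0.02, adjusted p = 0.866), beyond the far end, was dim. Among the segments only Gm25833 lay above the dim level, so the count says little about the locus.

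The only kappa J or constant segment with a probe set of its own was Igkj3, at 2.93, 2.98 and 2.48 on knockout arrays and 2.60, 2.32 and 2.67 on control arrays (change 0.27, adjusted p = 0.231). No probe set named Igkc alone. Of 4 heavy chain constant segments with a probe set, 2 rose and 1 fell (background 11.0% higher and 7.1% lower). Ighg2b, a switched IgG isotype, read 6.36, 6.22 and 6.28 in the knockout, against 5.18, 4.84 and 4.93 in control (change 1.30 ± 0.09, SE, adjusted p = 4.04e-05). Ighg1 rose by 0.50 (adjusted p = 0.00528), and Ighm, the isotype of unswitched cells, whose germline transcript is also made before any rearrangement, fell by 0.35 (9.26 in the knockout, 9.61 in control, adjusted p = 0.00365). The V segments of other receptors, from the same fit, gave different counts. Of 113 heavy chain V (Ighv) probe sets 59 rose and 7 fell, with a median change of 0.37. Of 111 T cell receptor V probe sets 4 rose and 2 fell, with a median of 0.01. That is 58.4% of Ighv and 5.41% of T cell receptor V probe sets called, beside 45.3% of Igkv members and a background of 18.1%. At 2-fold or more the calls were 15.9% of Ighv, 0% of T cell receptor V and 16.3% of Igkv probe sets. Calls above the background were thus not particular to kappa. The differences between these groups of segments were not tested.

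Markers of antibody-making cells moved in both directions, and most did not pass. In bulk RNA, fewer cells of a type and less RNA per cell cannot be told apart. Of 13 plasma cell markers, 2 rose and 2 fell, and 9 did not pass (median change 0.10, background 11.0% higher and 7.1% lower). Jchain, which joins antibody units into polymers, read 4.25, 4.04 and 4.24 on knockout arrays, against 3.81, 3.54 and 3.51 on control arrays (change 0.56, adjusted p = 0.00415). Derl3, part of protein quality control in the endoplasmic reticulum, rose by 0.36 (adjusted p = 0.00969), while the surface proteoglycan gene Sdc1 (-0.52, adjusted p = 0.00271) and the transcription factor gene Irf4 (-0.47, adjusted p = 0.0124) fell. The summed linear level of the list was 243 to 245 in the knockout and 224 to 238 in control, and 3 of its probe sets were dim. The brightest marker, Xbp1, made the largest part of this sum and did not pass (6.84 in the knockout, 6.72 in control, adjusted p = 0.169 in limma). The part of these markers in the V segment result was not tested.

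B cell markers gave less. Of 14 probe sets, 1 rose and 2 fell (median change 0.02, background 11.0% higher and 7.1% lower). The summed linear level was 167 to 171 in the knockout and 165 to 174 in control. The receptor subunit gene Cd79b rose by 0.26 (adjusted p = 0.0172), a call lost without control replicate 3 (0.24) or knockout replicate 3 (0.21), and Bank1 (-0.52) and Cd72 (-0.45) fell. Cd79a was at 0.03 (adjusted p = 0.774), and Ms4a1, which encodes CD20, was dim on every array, with 1.11, 1.04 and 0.96 in the knockout and 1.01, 1.02 and 1.12 in control. In all, 5 of the 14 were dim.

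Among markers of the earlier pro-B and pre-B stages, 1 of 18 rose and 6 fell. The median change was -0.08 (background 11.0% higher and 7.1% lower). The summed linear level was 661 to 717 in the knockout and 784 to 848 in control, and 1 was dim. Most of that gap lay in Sox4 and Dntt, and without these the sum was 238 to 244 in the knockout and 261 to 274 in control. The factor Ebf1, which commits cells to the B lineage, fell by 0.19 (adjusted p = 0.0444), and without any 1 of the 6 arrays it was at -0.21 to -0.15 and did not pass. The interleukin-7 receptor gene Il7r fell by 0.31 (adjusted p = 0.0170), a call lost without control replicate 1 (-0.27) or 3 (-0.29) and without knockout replicate 2 (-0.29) or 3 (-0.29). The signalling adaptor Blnk (-0.61), Erg (-0.49), Lef1 (-0.31) and Sox4 (-0.27) fell too, and these last 3 are not confined to B cells. Lef1 kept its call only when control replicate 3 was the array left out (-0.32 to -0.27 without the others). Pax5 (-0.01, adjusted p = 0.939), the surrogate light chain genes Vpreb1 (0.07, adjusted p = 0.520) and Igll1 (-0.08, adjusted p = 0.369) and Dntt (-0.27, adjusted p = 0.107) did not pass. The recombinase gene Rag2 was dim on every array (1.38, 1.29 and 1.34 in the knockout, 1.41, 1.40 and 1.43 in control, adjusted p = 0.371), and Rag1 had no probe set of its own.

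**Figure D4:**
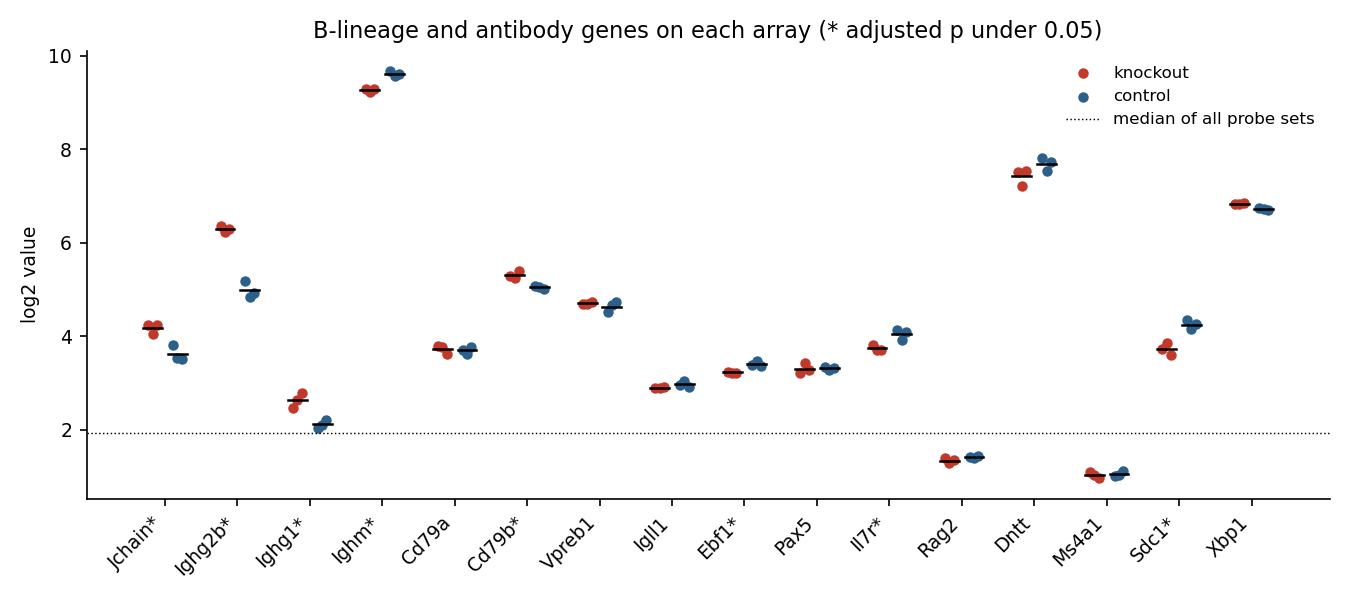
Log2 values (vertical axis) of antibody and B-lineage genes on 3 knockout arrays (red, left) and 3 control arrays (blue, right), with group means as lines and the median of all probe sets dotted. Jchain, Ighg2b and Ighg1 are higher in the knockout, Sdc1, Ighm, Il7r and Ebf1 lower, and Rag2 and Ms4a1 lie under the dotted line in each group.

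Factors known to act on the kappa locus were also examined. Among 24 with a probe set there were 9 that fell (background 7.1%), 1 that rose (background 11.0%) and 14 without a call, and the median change was -0.10. The NF-kB subunits Rel (-1.23, adjusted p = 9.26e-06) and Rela (-0.56, adjusted p = 3.49e-04), which bind the kappa intron enhancer, fell, as did Foxo1 (-1.04), Mef2c (-0.74), Brwd1 (-0.51), Tcf12 (-0.30), Irf4, Il7r and Ebf1. Irf8, which acts with Irf4 in pre-B cells, rose by 0.70 (adjusted p = 1.04e-04). The architectural genes Ctcf (-0.14, adjusted p = 0.274) and Rad21 (-0.05, adjusted p = 0.603) did not pass. Any link between these factors and the V segment changes was not tested. Of 10 recombination and repair genes, Nhej1 (0.31, adjusted p = 0.00568) rose, Xrcc5 (-0.30, adjusted p = 0.0196) fell and 8 did not pass. The background there was again 11.0% higher and 7.1% lower. Xrcc5 lost its call without control replicate 3 (-0.26) or knockout replicate 1 (-0.24).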

How the data were processed

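The values analysed are log2 signals of 65956 probe sets on 6 arrays, as deposited. RMA made them, per the submitters' processing notes, and biotin-labelled cDNA came from 250 ng of total RNA per the labels' protocols. RMA brings arrays to a common distribution at the probe level, and the probe set values still differed a little in distribution. The log base, read as 2 from values up to 11.5, and the genome build are not given in the sources used here. Array medians were 1.895 to 1.95. For arrays, their number (3 per group) limits the precision.

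Gene names came from GEO's annotation of the platform. A repeated symbol counted once, which left 30604 probe sets with 1 gene, 2146 with several and 33206 with none listed. RefSeq (GRCm38.p6) gave updated symbols, segment order and class. No coordinates were used, and strand was not used.

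The test was the moderated, two-sided one of limma 3.58.1 (functions lmFit then eBayes, under R 4.3.3), adjusted after Benjamini and Hochberg with a threshold of 0.05, with no filter on dim probe sets so that every member was tested. The code was tested on simulated data. Members, lists and tests were chosen with earlier results of these data known. The 2-fold rule and the genes beside the locus were added after the changes were seen. Named members were the 8 with the highest means, up to 8 rises and 8 falls of largest size, the 4 smallest p-values, the brightest of each family with at least 4 members, and examples chosen after their values were seen. Alternatives were 2 filters on dim probe sets, array centring, a second quantile normalization, 1 probe set per gene, a fit of all probe sets, array weights, another variance prior, a replicate block and leaving out each array. Lambda segments were also listed, and none of the 10 had a probe set of its own.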

Additional observations from a re-analysis of the deposited data

Results flagged for a closer look

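Outside the members, 15 probe sets listed an Igkv symbol together with other symbols and entered no comparison above. They stand here because 9 of them were higher in the knockout than in control samples when limma was fitted to all 65956, 1 was lower (Igkv1-99 with Igk, -0.54, adjusted p = 0.00236) and 5 did not pass, against 11.2% called overall in that fit. The changes were 1.58 for the probe set of Igk and Igkv4-74, 1.48 for Igkv12-41 and Igkv12-44, 1.01 for Igkv14-126 with Igk, and 0.91 for Igkv8-27 listed with Ighm. They were 0.71 for Igkv10-94 and Igkv10-96, 0.56 for Igkv4-53 and Igkv6-23, 0.47 for Igkv1-110 with Igk, and 0.36 for Igkv4-73 and Igkv4-78. The probe set that lists the constant region Igkc with 4 J and 8 V symbols was at 0.34 (4.05 ± 0.02 in the knockout and 3.72 ± 0.03 in control, SD, n = 3 each). Which of the listed genes gave the signal was not tested.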

How the results depend on the processing

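Of the 39 member calls, 26 (16 higher, 10 lower) passed in limma whichever array was left out, among them 13 of the 14 with at least 2-fold changes, the exception being Igkv6-32. Leaving out 1 array gave 19 to 24 members higher and 12 to 14 lower, 6 to 10 at least 2-fold higher and 5 to 9 at least 2-fold lower, and a median change of 0.0296 to 0.0809. The 9 and the 0.0296 came without control replicate 2. The share called over all probe sets in these fits was 12.3% to 14.9%. No called member changed sign under any of the 15 alternatives. With the filter at the dim level, 46 members were tested, 16 were higher and 10 lower, and the median was 0.12. With the filter at 3, 25 were tested, 10 were higher, 7 lower, 3 at least 2-fold higher, and the median was 0.13. Both filters test fewer members. Over all probe sets fitted, 31.5% were called with the filter at the dim level and 40.5% with the filter at 3, against 18.1% in the main fit. Igkv4-54, which did not pass, turned sign with array weights (0.021), without control replicate 1 (0.06) and without knockout replicate 2 (0.12), its range without 1 array being -0.2045 to 0.1244. Deviations of same-numbered arrays correlated at 0.156, 0.245 and 0.064, and those of differently numbered arrays at -0.206 to 0.086. The labels do not say whether replicate numbers pair the samples, these values do not settle it, and the main fit used no pairing. With the replicate block, 27 members were higher and 16 lower, 38 of 39 calls were kept and 5 were added, Igkv4-59 among them (-0.24, adjusted p = 0.0388). That fit called 21.4% of all probe sets. Signal near background limits 40 members by their mean over all arrays, and further members in the knockout or control alone.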
